A study of Homo sapiens with 12 samples.

Results

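The genes of the G1 cyclins, their kinases and the kinase inhibitors were followed through total and polysome-associated RNA of HEK293T cells with and without knockdown of PRRC2B, an RNA-binding protein. The 10 genes were chosen by name as the D cyclins (CCND1, CCND2, CCND3), the kinases CDK4 and CDK6, the inhibitors CDKN1A, CDKN1B, CDKN2A and CDKN2C, and RB1. They are 10 of 59385 gene names in the count table, and all 10 were among the 18166 that passed edgeR's filter on low counts. CCND2 was included because the study placed PRRC2B on its 5′ UTR, and the others as its paralogs, partners and inhibitors. From this same sequencing the study had already reported a lower translation efficiency (TE, the polysome-to-total ratio) of CCND2 after knockdown. The fall of CCND2 given below is therefore not an independent finding. HEK293T is a human embryonic kidney line that carries the SV40 large T antigen and adenoviral E1 genes, whose products bind the RB and p53 proteins. Both lines carried a Dox-inducible shRNA and were harvested 36 h after Dox was added. The shCtrl line expressed a non-silencing shRNA and the shPRRC2B line an shRNA against PRRC2B, and according to the methods each was a stable line from 1 clone, so the shRNA and the clone cannot be told apart. Total RNA and RNA pooled from gradient fractions 6 to 10 (polysome-associated RNA) were sequenced as poly(A)-enriched libraries, in 3 biological replicates for each of the 4 groups of line and fraction (12 libraries).

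D cyclins are the regulatory subunits of CDK4 and CDK6, and the assembled kinases phosphorylate RB1. Unphosphorylated RB1 holds back the E2F transcription factors, so that its phosphorylation opens the way from G1 into S phase. The INK4 inhibitors, p16 (from CDKN2A) and p18 (from CDKN2C), bind CDK4 and CDK6 and displace cyclin D. The CIP/KIP inhibitors, p21 (from CDKN1A) and p27 (from CDKN1B), act mainly on CDK2 complexes, and p21 is a textbook target of p53. D cyclins turn over quickly, and translation of their mRNAs is known to respond to growth signals.

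PRRC2B sites from the study's PAR-CLIP, in which RNA is crosslinked to the tagged protein, were found on 5 of the 10 mRNAs. The study called sites separately for full-length PRRC2B and for P2, its RNA-binding fragment. CCND2, CDKN2A and CDKN2C had sites in both sets, CDK4 in the P2 set and RB1 in the full-length set. CCND1, CCND3, CDK6, CDKN1A and CDKN1B had no called site, and whether PRRC2B binds them was not tested. The sites are 100 bases long, and 30 bases are shown of those of CCND2, CDKN2C, CDK4 and RB1 to let the sites of CCND2 be compared with those of other members. The stretch shown is the part of the site richest in C and T, or, for the full-length site of CCND2, in G and A, as DNA letters of GRCh38 in the sense of the mRNA, and the capitals mark its longest unbroken run of those bases, the first where 2 runs are equally long.
CCND2, P2 site: tcctcgCCTCCCTTCTgctccaccttctct
CCND2, full-length site: agagcGGAGAAGAGcgagcaggggagagcg
CDKN2C, site of both sets: tagacgctttccgcatcaCTCTCCTTCCTC
CDK4, P2 site: tctctgCCTTTCgagctctgcagcactctt
RB1, full-length site: TCCTTgactattttattaaactctcacctc

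The P2 site of CCND2 (chr12:4273823-4273922, plus strand) lay in the 5′ UTR in exon 1, at positions 62 to 161 of 279 bases, and 73 of its 100 bases were C or T. The stretch printed is chr12:4273860-4273889, of which 27 of 30 bases were C or T. The full-length site of CCND2 (chr12:4273729-4273828) began 33 bases before the canonical transcript and was rich in G and A instead, with 63 of 100 bases, and the printed stretch (chr12:4273762-4273791) is the first part of that transcript. The sites of CDKN2C (chr1:50969372-50969471 for the full-length protein and chr1:50969376-50969475 for P2, plus strand) fell in an exon of other transcripts of the gene, outside its canonical transcript, and the study's table places them in a 5′ UTR. The stretch shown (chr1:50969405-50969434) holds a run of 12 C or T bases. The CDK4 site (chr12:57748510-57748609, minus strand) covered the end of the CDS and the start of the 3′ UTR in exon 8, and the RB1 site (chr13:48360045-48360144, plus strand) covered 83 bases of CDS in exon 7 and 17 bases outside the exon of the canonical transcript. The 5′ UTR of CDKN1B held a C/T run of 18 bases, 1 base longer than the longest run in the 5′ UTR of CCND2 (17 bases), and had no site in either set. The run of 17 bases was taken over the whole 5′ UTR of CCND2, and whether PRRC2B binds it was not checked. In the printed P2 stretch of CCND2 the longest C/T run has 10 bases.

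PRRC2B itself checked the labels: its total RNA fell from a mean of 281 to 100.3 CPM, a log2 change of -1.49 (SE 0.17, edgeR adjusted p = 4.25e-06). Levels are given as CPM, the usual count relative to library size, with library sizes scaled by TMM over the 12 libraries, which held between 9855734 and 20837542 counts. The 5 HEK293T markers (KRT8, KRT18, VIM, NEFM, PAX2) were all detected in each group, with a summed level of 524 to 571 CPM in shCtrl total RNA and 398 to 423 CPM in shPRRC2B total RNA. Within that sum, mean total RNA levels went from 90.1 to 20.6 CPM for KRT8, from 286 to 96.5 CPM for NEFM and from 122 to 237 CPM for VIM between shCtrl and shPRRC2B cells. Of 5 markers of other cells, PTPRC, CD3E, ALB and PECAM1 had at most 5 counts in any library, and COL1A1 had a mean of 17.1 CPM in shCtrl and 31.8 CPM in shPRRC2B total RNA. The part of these markers in the results below was not tested. Polysome libraries of the same group differed from each other more than total RNA libraries did, with a chi-square per gene of 13.9 to 75.4 against 3.24 to 8.63. The nuclear RNAs MALAT1 and NEAT1 summed to 319 to 392 CPM in shCtrl total RNA, 136 to 164 CPM in shPRRC2B total RNA, 83.5 to 408 CPM in shCtrl polysome RNA and 30.7 to 44.04 CPM in shPRRC2B polysome RNA, and their part in the results below was not tested.

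Among the 10 mRNAs, those of the INK4 inhibitors and CDK4 were the most abundant per length, and those of CCND2, CDK6 and RB1 were the scarcest per length on polysomes. Lengths are those of canonical transcripts, and which transcripts the cells express was not checked. In shCtrl total RNA, the level per kilobase of canonical transcript was highest for CDKN2A (176 ± 23.9 CPM per kb, SD, n = 3), followed by CDKN2C (71.5 ± 6.89) and CDK4 (49.5 ± 8.35). CDKN1B (16.9 ± 0.93), CCND3 (15.8 ± 0.28), CDKN1A (15.8 ± 3.14), RB1 (9.75 ± 0.55), CDK6 (7.79 ± 0.43), CCND1 (7.74 ± 0.36) and CCND2 (5.51 ± 0.43) came next on the same scale. In that order CCND3 and CDKN1A overlapped in range, as did CDK6 and CCND1, and the other neighbours did not overlap. In shPRRC2B total RNA, CDK6 stood above CDKN1B, CCND1, RB1 and CCND2 with 12.95 ± 0.34 CPM per kb, though its range overlapped that of CDKN1B (12.3 ± 1.17). In shPRRC2B polysome RNA the order ran from CDKN2A (1253 ± 191 CPM per kb) to RB1 (0.88 ± 0.40), CCND2 (0.72 ± 0.33) and CDK6 (0.71 ± 0.08), the last neighbours in that order overlapping in range. The plot of levels by library shows the 4 groups of each gene.

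**Figure D1:**
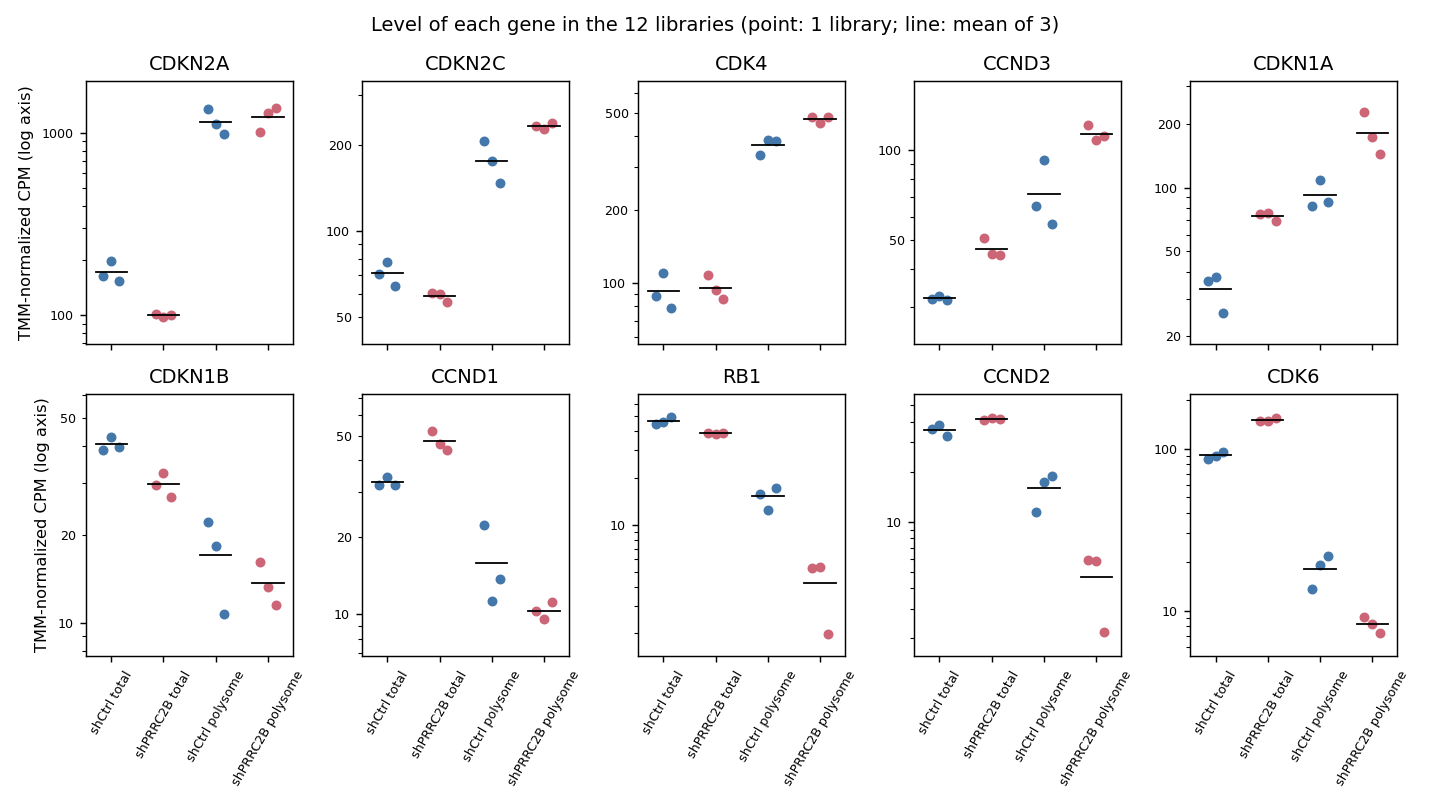
TMM-normalized CPM (log axis) of each gene in the 12 libraries, 1 point per library, with the mean of 3 replicates as a line, for shCtrl (blue) and shPRRC2B (red) cells in total and polysome-associated RNA; genes run from the shortest to the longest canonical transcript. Polysome levels exceed total levels for CDKN2A, CDKN2C, CDK4, CCND3 and CDKN1A and lie below them for the other 5 genes, and CCND2, CDK6 and RB1 have polysome levels under 10 CPM in shPRRC2B cells only.

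The 10 mRNAs split into 5 that were enriched on polysomes and 5 that were depleted, and the split was the same in both lines. In shCtrl cells, the log2 polysome-to-total ratio was 2.74 for CDKN2A, 2.00 for CDK4, 1.46 for CDKN1A, 1.31 for CDKN2C and 1.16 for CCND3. It was -1.05 for CCND1, -1.17 for CCND2, -1.25 for CDKN1B, -1.61 for RB1 and -2.33 for CDK6. All 10 passed the thresholds used throughout, a log2 change beyond 0.5 in size at a Benjamini-Hochberg adjusted p under 0.05 in edgeR's quasi-likelihood fit, where 32.5% of all genes tested were called enriched and 39.8% depleted. In shPRRC2B cells the same 5 and 5 were called (36.6% of all genes enriched, 42.3% depleted), with ratios from 3.61 for CDKN2A to -4.19 for CDK6. These ratios are relative to the TMM scale, on which the median of all genes was -0.22 in both lines. Scaling by total counts moved that median to -1.22 in shCtrl and -1.16 in shPRRC2B cells and changed the share of enriched genes among those called from 45.0% to 23.1% and from 46.4% to 29.6%, and there CCND3 (0.17), CDKN1A (0.46) and CDKN2C (0.32) in shCtrl cells and CCND3 (0.34) and CDKN1A (0.37) in shPRRC2B cells kept their sign but were no longer called.

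TE differed between the lines for 6 of the 10 mRNAs: CCND1, CCND2, CDK6 and RB1 were TE-down, and CDKN2A and CDKN2C were TE-up. TE change here means the log2 difference of that ratio between knockdown and control cells, and across all genes tested 16.4% were TE-down and 10.7% TE-up at the same thresholds. CCND3, CDK4, CDKN1A and CDKN1B were not called. For the genes called, the ratios of shPRRC2B cells lay apart from those of shCtrl cells, and for the others they overlapped. These ratios come from the same counts as the calls, so their separation adds no support to the calls. They were joined by replicate number, which was not taken as pairing the samples. The share of all genes with ratios apart is not given. The median TE change of the 10 was -0.02, against -0.03 over all genes. The plot of ratios by replicate shows the 2 lines side by side.

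**Figure D2:**
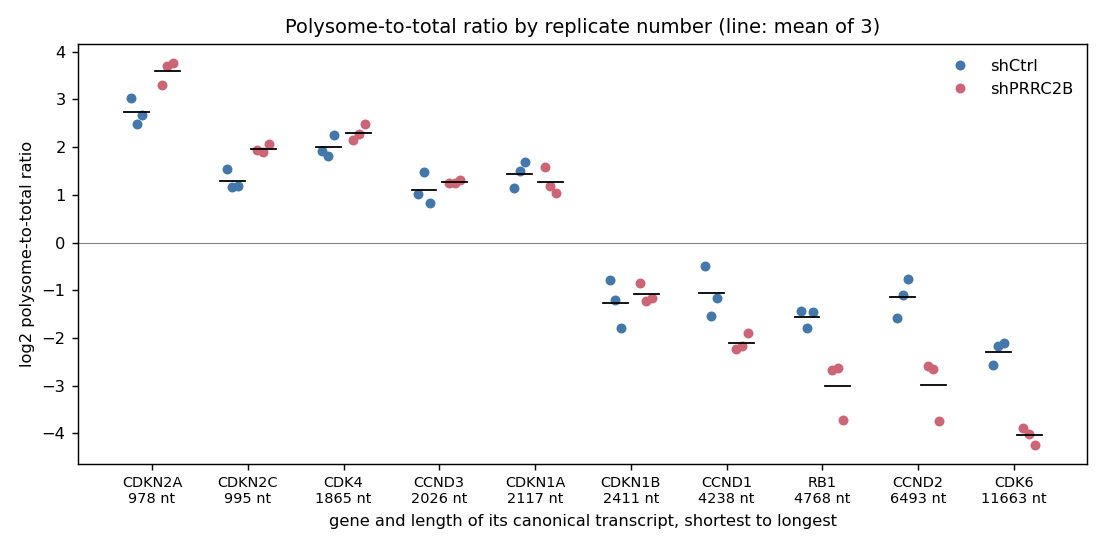
Log2 polysome-to-total ratio of each gene, taken by replicate number (1 point per replicate, line at the mean of 3), in shCtrl (blue) and shPRRC2B (red) cells, with genes ordered by the length of the canonical transcript in nt. The 5 genes with the shortest transcripts lie above 0 and the 5 with the longest below it, and the lines separate for CDKN2A, CDKN2C, CCND1, RB1, CCND2 and CDK6.

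CCND2 and CCND1 were TE-down while CCND3 was not, although all 3 encode D cyclins. CCND2 (ENSG00000118971.9, chr12:4269771-4305353, plus strand) had 36.3, 38.2 and 32.8 CPM in the 3 total RNA libraries of shCtrl cells and 40.9, 41.9 and 41.4 CPM in those of shPRRC2B cells. On polysomes it had 11.5, 17.3 and 19.0 CPM in shCtrl cells and 5.93, 5.83 and 2.2 CPM in shPRRC2B cells, from 123 to 171 and from 23 to 69 counts. The groups did not overlap in either fraction, with shPRRC2B cells slightly higher in total RNA and all of them lower on polysomes. The TE change of CCND2 was -1.97 (95% interval -2.68 to -1.26, SE 0.34, edgeR adjusted p = 4.78e-04). It came from the polysome side, where CCND2 fell by 1.76 on the log2 scale (SE 0.26, edgeR adjusted p = 4.25e-05), while the log2 change in total RNA was 0.21 (interval -0.24 to 0.66, edgeR adjusted p = 0.473). In total RNA 14.9% of all genes were called up and 14.1% down, and on polysomes 18.4% were called up and 21.4% down. Another coding gene on the same strand, ENSG00000285901, shares 12.5% of the exonic bases of CCND2 in GENCODE 44, whereas the counting used GENCODE 38, and how read pairs there were counted was not checked.

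CCND1 (ENSG00000110092.4, chr11:69641156-69654474, plus strand) had 31.9, 34.5 and 31.9 CPM in shCtrl total RNA and 52.0, 46.1 and 44.02 CPM in shPRRC2B total RNA. Its polysome levels were 22.4, 11.3 and 13.8 CPM in shCtrl cells and 10.2, 9.55 and 11.1 CPM in shPRRC2B cells. All 3 knockdown libraries were above the controls in total RNA and below them on polysomes, where the gap between the nearest libraries was narrow. The TE change was -1.16 (interval -1.73 to -0.58, SE 0.27, edgeR adjusted p = 0.00464). CCND1 rose in total RNA by 0.53 (SE 0.18, edgeR adjusted p = 0.0289) and fell by 0.62 on polysomes (SE 0.20, edgeR adjusted p = 0.0191), both on the log2 scale. Neither of these was firm: the total RNA call was lost when any 1 of the 12 libraries was left out (0.46 to 0.58), and without shCtrl polysome replicate 1, the highest control, the polysome change was -0.37 (edgeR adjusted p = 0.0721). The CCND1 polysome RNA change was also not called in a fit of the polysome libraries alone (-0.63, edgeR adjusted p = 0.0838). The TE call held with each library left out (-1.40 to -0.85).

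CCND3 (ENSG00000112576.13, chr6:41934934-42050357, minus strand) had between 31.6 and 32.7 CPM in shCtrl total RNA and between 44.7 and 50.9 CPM in shPRRC2B total RNA. On polysomes it had 65.2, 93.2 and 56.9 CPM in shCtrl cells and 122, 108 and 112 CPM in shPRRC2B cells. The knockdown libraries were higher in both fractions with no overlap. CCND3 rose by 0.55 in total RNA (SE 0.15, edgeR adjusted p = 0.00990) and by 0.67 on polysomes (SE 0.15, edgeR adjusted p = 0.00168), so that its TE change was 0.12 (interval -0.33 to 0.57, edgeR adjusted p = 0.718). Without shCtrl polysome replicate 3, the lowest control, the polysome change was 0.43 and no longer called, and without shPRRC2B total replicate 1 or any 1 polysome library the total RNA change was just under the threshold (0.49 to 0.50).

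CDK4 and CDK6, the alternative catalytic partners of the D cyclins, did not move together: CDK6 was TE-down and CDK4 was not called. CDK6 (ENSG00000105810.10, chr7:92604921-92836573, minus strand) had 86.0, 90.5 and 96.0 CPM in shCtrl total RNA and 148, 149 and 156 CPM in shPRRC2B total RNA. On polysomes it had 13.6, 19.2 and 21.6 CPM in shCtrl cells and 9.11, 8.31 and 7.33 CPM in shPRRC2B cells. Knockdown libraries were thus all higher in total RNA and all lower on polysomes. CDK6 rose by 0.73 in total RNA (SE 0.14, edgeR adjusted p = 5.92e-04), fell by 1.13 on polysomes (SE 0.17, edgeR adjusted p = 3.78e-05), and had a TE change of -1.86 (interval -2.32 to -1.41, SE 0.22, edgeR adjusted p = 2.80e-05). Its canonical transcript is the longest of the 10, at 11663 nt, of which 10219 are 3′ UTR.

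CDK4 (ENSG00000135446.17, chr12:57747727-57756013, minus strand) had 88.6, 109 and 78.9 CPM in shCtrl and 107, 93.3 and 85.6 CPM in shPRRC2B total RNA, which overlapped. Its polysome levels were 336, 386 and 383 CPM in shCtrl cells and 482, 453 and 481 CPM in shPRRC2B cells, with no overlap. The log2 change was 0.05 in total RNA (edgeR adjusted p = 0.822) and 0.36 on polysomes (SE 0.14, edgeR adjusted p = 0.0398), which is under the threshold on size. The TE change was 0.31 (interval -0.09 to 0.72, edgeR adjusted p = 0.244). TSPAN31, on the opposite strand, shares 44.3% of the exonic bases of CDK4, and the counting options given in the methods name no strand.

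Of the INK4 genes, CDKN2A and CDKN2C were TE-up, and in neither did the polysome level itself pass the thresholds. CDKN2B, which encodes the INK4 inhibitor p15 and is named here after its values were seen, was not called by TE (0.51, edgeR adjusted p = 0.182) and fell by 0.92 in total RNA on the log2 scale (edgeR adjusted p = 0.0012). CDKN2A (ENSG00000147889.18, chr9:21967752-21995301, minus strand), whose counts sum the mRNAs of p16 and of the p53-stabilizing protein ARF, had 164, 198 and 154 CPM in shCtrl total RNA and 102, 98.0 and 101 CPM in shPRRC2B total RNA. On polysomes it had 1347, 1121 and 986 CPM in shCtrl cells and 1016, 1283 and 1377 CPM in shPRRC2B cells. Knockdown libraries were all lower in total RNA and overlapped the controls on polysomes. CDKN2A fell by 0.78 in total RNA (SE 0.15, edgeR adjusted p = 8.52e-04), its log2 change on polysomes was 0.09 (interval -0.23 to 0.41, edgeR adjusted p = 0.659), and its TE change was 0.87 (interval 0.42 to 1.32, SE 0.21, edgeR adjusted p = 0.00630). The antisense RNA CDKN2B-AS1 shares 15.3% of its exonic bases.

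CDKN2C (ENSG00000123080.12, chr1:50960745-50974634, plus strand) had 70.9, 78.1 and 64.4 CPM in shCtrl total RNA and 60.5, 60.02 and 56.5 CPM in shPRRC2B total RNA. Its polysome levels were 207, 176 and 147 CPM in shCtrl cells and 234, 227 and 240 CPM in shPRRC2B cells. Knockdown libraries were all below the controls in total RNA and all above them on polysomes. Neither fraction passed the thresholds alone, with log2 changes of -0.27 in total RNA (SE 0.13, edgeR adjusted p = 0.116) and 0.40 on polysomes (SE 0.13, edgeR adjusted p = 0.0168). The TE change was 0.67 (interval 0.29 to 1.06, SE 0.18, edgeR adjusted p = 0.0111). An antisense lncRNA, ENSG00000290102, shares 20.4% of the exonic bases of CDKN2C.

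Of the CIP/KIP inhibitors, CDKN1A rose in both fractions, and CDKN1B was not called in either with all libraries kept. CDKN1A (ENSG00000124762.14, chr6:36676460-36687337, plus strand) had 36.5, 37.97 and 25.8 CPM in shCtrl and 75.2, 76.2 and 69.4 CPM in shPRRC2B total RNA. On polysomes it had 82.0, 109 and 85.4 CPM in shCtrl cells and 227, 174 and 144 CPM in shPRRC2B cells. The knockdown libraries were higher in both fractions with no overlap. The log2 rise was 1.13 in total RNA (SE 0.17, edgeR adjusted p = 1.12e-04), the largest of the 10 genes, and 0.98 on polysomes (SE 0.17, edgeR adjusted p = 2.09e-04), with a TE change of -0.15 (interval -0.67 to 0.36, edgeR adjusted p = 0.689). In bulk RNA, more cells in one phase of the cell cycle and more RNA per cell cannot be told apart.

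CDKN1B (ENSG00000111276.12, chr12:12685498-12722369, plus strand) had 38.9, 43.2 and 39.9 CPM in shCtrl total RNA and 29.6, 32.6 and 26.97 CPM in shPRRC2B total RNA. Its polysome levels were 22.0, 18.2 and 10.8 CPM in shCtrl cells and 16.1, 13.3 and 11.5 CPM in shPRRC2B cells. Knockdown libraries were all lower in total RNA and overlapped the controls on polysomes. The log2 changes were -0.45 in total RNA (SE 0.19, edgeR adjusted p = 0.0713) and -0.32 on polysomes (SE 0.21, edgeR adjusted p = 0.223), and the TE change was 0.13 (interval -0.46 to 0.72, edgeR adjusted p = 0.774). Without shCtrl polysome replicate 3, the lowest control, the polysome change was -0.67 (edgeR adjusted p = 0.00685), and it was then called down. The CDKN1B total RNA change was called down when polysome replicate 1 or 3 of either line was left out (-0.50 in each, edgeR adjusted p = 0.0123 to 0.0478).

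RB1 (ENSG00000139687.16, chr13:48303744-48599436, plus strand), the substrate of the cyclin D kinases, was TE-down through its polysome level. It had 44.5, 45.5 and 49.5 CPM in shCtrl total RNA and 38.6, 38.2 and 38.8 CPM in shPRRC2B total RNA. On polysomes it had 15.8, 12.5 and 17.3 CPM in shCtrl cells and 5.25, 5.35 and 2.00 CPM in shPRRC2B cells, the last from 21 counts. Knockdown libraries lay below the controls in both fractions, by the wider margin on polysomes. RB1 fell by 1.85 on polysomes (SE 0.24, edgeR adjusted p = 1.28e-05), its log2 change in total RNA was -0.27 (interval -0.68 to 0.13, edgeR adjusted p = 0.295), and its TE change was -1.58 (interval -2.23 to -0.93, SE 0.31, edgeR adjusted p = 0.00131).

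Over the 10 genes, 4 were called up (CCND1, CCND3, CDK6, CDKN1A) and 1 down (CDKN2A) in total RNA, and 2 were called up (CCND3, CDKN1A) and 4 down (CCND1, CCND2, CDK6, RB1) on polysomes. These counts stand against 14.9% up and 14.1% down of all genes in total RNA and 18.4% up and 21.4% down on polysomes, to which the 1 down in total RNA and the 2 up on polysomes are near. CDK6 moved in opposite directions in the 2 fractions. The calls of CCND1 had opposite signs too, but besides the limits given above neither fraction was called with the trend of counts with transcript length removed (log2 change 0.44, edgeR adjusted p = 0.0694, in total RNA and -0.41, edgeR adjusted p = 0.121, on polysomes). CCND3 and CDKN1A rose in both. CCND2 and RB1 passed the test on polysomes alone and CDKN2A in total RNA alone, although a difference between the fractions was tested only as the TE change.

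Paralogs were set against each other within each library, where the scaling of libraries largely cancels, apart from the pseudocount of 1 CPM. The TE ratios were joined by replicate number, which was not taken as pairing the samples. A two-sided exact permutation test of 3 against 3 was made for 6 pairs in each of TE, total RNA and polysome RNA, and cannot give a p below 0.1. By TE, the log2 ratio of CCND2 to CCND3 went from -2.25 ± 0.58 (SD, n = 3) in shCtrl cells to -4.26 ± 0.67 in shPRRC2B cells (exact p = 0.1, adjusted 0.2). That of CCND1 to CCND3 went from -2.17 ± 0.77 to -3.36 ± 0.15 (exact p = 0.1, adjusted 0.2, n = 3), and that of CDK4 to CDK6 from 4.28 ± 0.26 to 6.34 ± 0.34 (exact p = 0.1, adjusted 0.2, n = 3). These 3 pairs had groups that did not overlap, at the smallest p the design allows. Transcript length does not cancel within a library. In these 3 pairs CCND2 (6493 nt), CCND1 (4238 nt) and CDK6 (11663 nt) are longer than CCND3 (2026 nt) and CDK4 (1865 nt). The part of length in these shifts was not tested. With a pseudocount of 0.1 or 5 CPM the shift of CCND2 to CCND3 was -2.22 or -1.49. The ratio of CCND2 to CCND1 went from -0.08 ± 0.87 to -0.90 ± 0.82 (exact p = 0.3, adjusted 0.36, n = 3) with overlapping groups, so a difference in TE change between CCND2 and CCND1 was not shown, and with a pseudocount of 0.1 or 5 CPM the shift was -0.98 or -0.44. Groups also overlapped for CDKN1A to CDKN1B, with a shift of -0.36 (exact p = 0.5, n = 3), and for CDKN2A to CDKN2C, with a shift of 0.18 (exact p = 0.3, n = 3). In total RNA the largest shift was that of CDKN1A to CDKN1B, from -0.30 ± 0.28 to 1.28 ± 0.07 (exact p = 0.1, adjusted 0.12, n = 3).

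The members that were TE-down had long transcripts and those that were TE-up had short ones, and the same order ran through all genes. Among genes tested, the median TE change was 0.49 for canonical transcripts up to 1000 nt, 0.28 from there to 2000 nt, -0.04 to 4000 nt, -0.38 to 6000 nt and -0.69 above. CDKN2A (978 nt) and CDKN2C (995 nt) lie in the first of these classes, CDK4 (1865 nt) in the second, CCND3 (2026 nt), CDKN1A (2117 nt) and CDKN1B (2411 nt) in the third, CCND1 (4238 nt) and RB1 (4768 nt) in the fourth, and CCND2 (6493 nt) and CDK6 (11663 nt) in the last. All annotated transcripts together cover 3885 exonic bases of CDKN2A and 3018 of CDKN2C, and which transcripts these cells express was not checked. The called members were further from 0 than the median of their class, CCND2 at -1.97 and CDK6 at -1.86 against -0.69, RB1 at -1.58 and CCND1 at -1.16 against -0.38, and CDKN2A at 0.87 and CDKN2C at 0.67 against 0.49. For RB1, CCND1, CDKN2A and CDKN2C this followed from the calling threshold of 0.5, which lies past the median of their class. The polysome-to-total ratio in shCtrl cells followed length as well, from a median of 2.26 in the first class to -1.72 in the last. The plot of TE change against length shows the members among all genes.

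**Figure D3:**
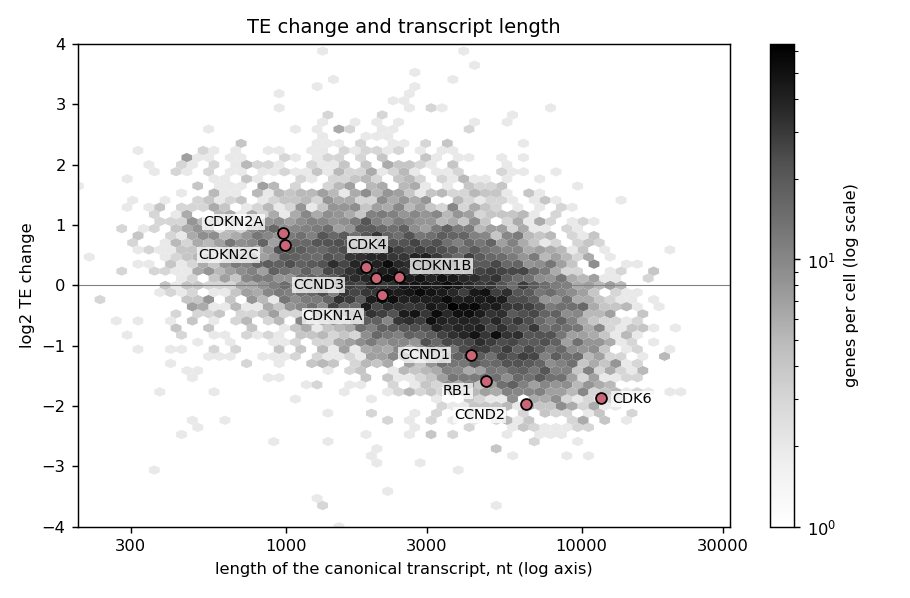
Log2 TE change against the length of the canonical transcript in nt (log axis), with all tested genes of known length as grey cells shaded by the number of genes (log scale) and the 10 members as red points. CCND1, RB1, CCND2 and CDK6 lie in the lower part of the genes of their length, and CDKN2A and CDKN2C within the bulk of short transcripts.

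When each library's dependence of counts on transcript length was taken out by a smooth curve, the 4 TE-down members remained called and the 2 TE-up members did not. The TE change was then -1.41 for CCND2 (interval -2.08 to -0.74, edgeR adjusted p = 0.00501), -1.20 for RB1 (edgeR adjusted p = 0.00779), -1.04 for CDK6 (edgeR adjusted p = 0.00162) and -0.84 for CCND1 (edgeR adjusted p = 0.0367). It was 0.50 for CDKN2A (interval 0.13 to 0.88, edgeR adjusted p = 0.0529) and 0.32 for CDKN2C (interval -0.03 to 0.66, edgeR adjusted p = 0.173). In that fit 10.8% of 15762 genes were TE-up and 10.8% TE-down. The depletion of CCND1 (-0.23) and CDK6 (-0.40) from shCtrl polysomes was no longer called, the ratio of CCND2 there was 0.23 and that of CDKN2C -0.45, both with the sign turned, while CDKN1B (-1.53) and RB1 (-0.61) stayed depleted. Removing the trend also takes out any change that itself varies with length. The curve used canonical lengths, whichever transcripts these cells express.

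**Figure D4:**
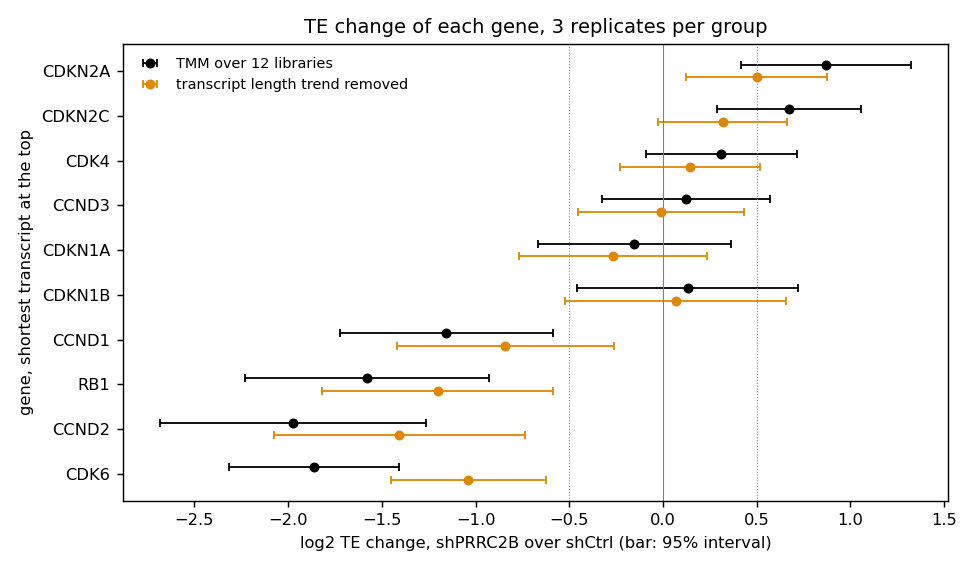
Log2 TE change of each gene with its 95% interval, from libraries scaled by TMM (black) and after removal of the length trend (orange), 3 replicates per group; dotted lines mark the threshold of 0.5 on either side. Intervals of CCND1, RB1, CCND2 and CDK6 stay below 0 in both, and that of CDKN2C reaches 0 once the trend is removed.

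Presence of a PRRC2B site did not sort the members by the direction of their TE change. Of the 3 with sites in both sets, CCND2 was TE-down and CDKN2A and CDKN2C were TE-up. Neither TE-up call held with the length trend removed (CDKN2A 0.50, edgeR adjusted p = 0.0529, and CDKN2C 0.32, edgeR adjusted p = 0.173). Of the 5 without a site, CCND1 and CDK6 were TE-down, and CCND3, CDKN1A and CDKN1B were not called. RB1, with a site in the full-length set, was TE-down, and CDK4, with a site in the P2 set, was not called. The sites came from the study's own PAR-CLIP and were not measured again here, and a member without a called site may still be bound. Members with a site included the most abundant per length in shCtrl total RNA (CDKN2A, CDKN2C, CDK4) and the scarcest (CCND2). The part of RNA level in the calling of sites was not tested. Over all mRNAs it called bound, the study reported more with decreased than with increased TE, and so few members cannot decide that question.

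Of 16 partners of these genes in the G1/S transition, 3 were TE-up and 2 TE-down, near the 10.7% and 16.4% of all genes, with a median TE change of 0.13. CDKN2D, which encodes the INK4 inhibitor p19, was TE-up by 1.52 (SE 0.36, edgeR adjusted p = 0.00502), as were TFDP1, a dimer partner of E2F proteins (0.75, edgeR adjusted p = 0.0119), and E2F1 (0.68, edgeR adjusted p = 0.00899). RBL1, the RB family member p107, was TE-down by -1.94 (SE 0.28, edgeR adjusted p = 1.49e-04), and E2F2 by -0.82 (edgeR adjusted p = 0.0384). The number TE-down was 4 without shCtrl polysome replicate 1 or without shPRRC2B polysome replicate 1, and 1 without several of the other libraries. With the length trend removed, 4 were TE-up and 1 TE-down.

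Of 16 genes for the turnover and activation of cyclin D and p27, 1 was TE-up and 3 were TE-down, again near the 10.7% and 16.4% of all genes, with a median TE change of -0.23. CKS1B, a cofactor of the ubiquitin ligase that marks p27, was TE-up (1.00, SE 0.18, edgeR adjusted p = 6.94e-04) as its total RNA fell by 1.02 on the log2 scale. AMBRA1 and DDB1, parts of the ligase that marks D cyclins, were TE-down (-1.51, edgeR adjusted p = 6.15e-05, and -0.98, edgeR adjusted p = 7.29e-04), as was CDC25A, a phosphatase that activates CDKs (-0.79, edgeR adjusted p = 0.00950). With the length trend removed, 2 were TE-up and 3 TE-down, and the median TE change was 0.04, with the sign turned.

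Among 16 E2F target genes of DNA replication, none was TE-up and 6 were TE-down (10.7% and 16.4% of all genes), and the median TE change was -0.61 against -0.03 over all genes. POLA1, a subunit of DNA polymerase alpha (-1.37, edgeR adjusted p = 3.82e-04), RRM1, a subunit of ribonucleotide reductase (-1.09, edgeR adjusted p = 6.55e-04), and MCM4, a subunit of the replicative helicase (-1.03, edgeR adjusted p = 0.00119), had the lowest values. In total RNA 1 of the 16 was called up and 0 down (median 0.35), against 14.9% and 14.1% of all genes. On polysomes 0 were called up and 4 down (median -0.28), against 18.4% and 21.4% of all genes. The 4 down on polysomes are near the share of all genes. The count of TE-down genes was 12 without shCtrl polysome replicate 1 and 10 without shPRRC2B polysome replicate 1, and it was 10 with every gene that had a count in the fit. Their transcripts had a median length of 3200 nt, and with the length trend removed 7 were TE-down and none TE-up, at a median of -0.59.

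Of 11 p53 target genes other than CDKN1A, 2 were TE-up and 4 TE-down (10.7% and 16.4% of all genes). MDM2, the ligase that degrades p53, was TE-down (-2.14, SE 0.30, edgeR adjusted p = 1.01e-04) as its total RNA rose by 1.31 on the log2 scale. TP53INP1 (-2.05, edgeR adjusted p = 1.88e-04) and ZMAT3 (-1.95, edgeR adjusted p = 1.97e-04) were TE-down as well, with total RNA up by 0.70 and 0.74. GADD45A (0.86, edgeR adjusted p = 0.0194) and BBC3, which encodes the apoptosis protein PUMA (0.75, edgeR adjusted p = 0.0335), were TE-up as their total RNA fell by 0.82 and 1.54. In total RNA 5 of the 11 were called up and 3 down, against 14.9% and 14.1% of all genes. The list had 0 TE-up genes with the length trend removed and when replicate 2 of shCtrl total RNA, replicate 2 or 3 of shCtrl polysome RNA, or replicate 3 of either shPRRC2B fraction was left out. The plot by gene list sets these beside the 10 members.

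**Figure D5:**
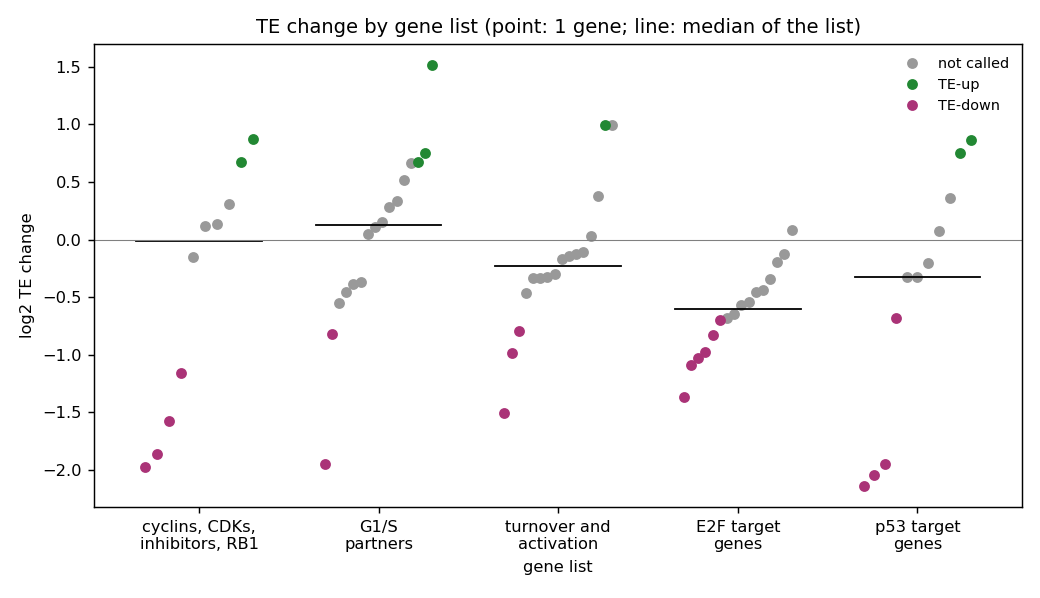
Log2 TE change of each gene (1 point per gene) in the 10 members and in the lists of 16 G1/S partners, 16 genes of turnover and activation, 16 E2F targets and 11 p53 targets, with TE-up genes in green, TE-down genes in purple, genes not called in grey and the median of each list as a line. The members reach from -1.97 to 0.87, and 15 of the 16 E2F targets lie below 0.

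The expression pattern of CCND2 over the 12 libraries was nearest to that of PDCD4 (Pearson r = 0.997 on log2(CPM + 1)), MBD6 (0.995), XPR1 (0.994) and CCNT1 (0.994), out of 10041 genes whose mean level was 10 CPM or more. These 4 were TE-down, from -0.92 for PDCD4 to -2.57 for CCNT1. They were picked for likeness to CCND2 over the same libraries, so these calls largely follow from the choice. Within the 10 genes, RB1 (r = 0.979) and CDK6 (0.938) came closest to CCND2, CCND1 (0.859) and CDKN1B (0.800) followed, and the 5 polysome-enriched genes had r between -0.92 and -0.77. The 12 points share 2 lines and 2 fractions, so these values mostly describe which groups are high and low.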

How the data were processed

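The authors deposited raw counts of read pairs per gene name for the 12 libraries, without normalization. Per the methods and the submitters' processing notes, pairs were trimmed (Trimmomatic 0.36), aligned to GRCh38 (Hisat) and assigned to GENCODE 38 genes (featureCounts, Subread 2.0.1) with no option named for strand or for pairs over several genes, so counts of overlapping genes are uncertain. Groups came from the sample labels. In R 4.3.3, edgeR 4.0.16 was run with filterByExpr (minimum count 10), TMM, and glmQLFit and glmQLFTest on 4 groups with no block. Adjustment (Benjamini-Hochberg) ran over all 18166 genes tested, and calls needed 0.05 and a log2 change beyond 0.5. Paralogs were compared by exact permutation on log2(CPM + 1) (scipy 1.17.1). Libraries held 9855734 to 20837542 counts, so a polysome level of a few CPM rests on few counts. Lengths, positions and sequence came from GENCODE 44 on GRCh38 (length known for 86.8% of genes tested), and site positions from the study's PAR-CLIP.

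Named genes were the 10 members, PRRC2B, up to 3 of the largest rises and falls in TE among called genes of each list, and the 5 genes most like CCND2. One gene of the last group and the site positions and sequences of 1 member are not reported here. The members and lists were chosen with earlier results of these data known. The fit was tested on simulated data. Alternatives were DESeq2 1.42.0, its size factors, total counts, TMM within each fraction, 2 other filters, limma 3.58.1 on log2(CPM + 1), replicate and culture blocks, the length trend removed (lowess, span 0.3) with and without the replicate block, 1 fraction alone, no minimum log2 change, other pseudocounts and each library left out.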

Additional observations from a re-analysis of the deposited data

Results flagged for a closer look

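The TE change is itself a test of whether the difference between the lines differs between polysome and total RNA. It passed the thresholds for 6 of the 10 genes, 4 TE-down and 2 TE-up, against 16.4% and 10.7% of all genes. These are the TE calls given above. The difference between the fractions (polysome less total, log2) was -1.16 for CCND1, -1.97 for CCND2, -1.86 for CDK6 and -1.58 for RB1, and 0.87 for CDKN2A and 0.67 for CDKN2C. In CDK6 the difference between the lines passed the thresholds in opposite directions in the 2 fractions, whereas in CCND2 and RB1 it passed on polysomes only and in CDKN2A in total RNA only. The calls of CCND1 also had opposite signs, but that in total RNA was lost with any 1 library left out.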

How the results depend on the processing

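CCND1, CCND2, CDK6 and RB1 stayed TE-down in each of the alternatives and each leave-one-out fit run, with CCND2 between -2.26 and -1.41. With the length trend removed, with or without the replicate block, 0 members were TE-up (CDKN2A 0.50 in both, CDKN2C 0.32 in both). Replicate numbers were not taken as pairing the samples. Deviations of same-numbered libraries had correlations between -0.107 and 0.098, which cannot decide whether these libraries shared a culture. The replicate block alone left 2 members TE-up and 4 TE-down, beside 1812 and 2807 of the 18166 genes tested. Members called up in total RNA numbered 2 with total counts as scale, beside 2143 of the 18166 genes tested. With 1 library left out, 2 to 3 members were called up and 1 to 2 down in total RNA. Of all genes, 2099 to 2621 were then called up and 1916 to 3194 down. Members called up on polysomes numbered 4 with no minimum log2 change and 1 to 2 with 1 library left out. Of all genes, at most 3812 were called up on polysomes in any alternative, and 2493 to 3353 with 1 library left out. The sign turned for several values near 0. The CCND3 TE change was -0.0095 with the length trend removed and -0.072 to 0.30 with 1 library left out, where the CDKN1B TE change was -0.16 to 0.33. The CDK4 total RNA change was -0.026 with total counts, -0.001 in 1 fraction alone and -0.057 to 0.18 with 1 library left out. The CDKN2A polysome RNA change was -0.0021 with every gene that had a count, -0.18 with the length trend removed, with or without the block, and -0.12 to 0.13 with 1 library left out. With the length trend removed, the shCtrl polysome-to-total ratio turned to 0.23 for CCND2 and to -0.45 for CDKN2C, and that of CDKN2C in shPRRC2B cells to -0.14. Over all genes, TE-down calls went from 2981 to 1709 with the length trend removed and to 1557 with the block as well. The causes of these differences were not tested, and polysome counts as low as 21 limit RB1 and CCND2.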
